A study of Mus musculus with 4 samples.

Results

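Oxidative phosphorylation is carried out by 5 protein complexes of the inner mitochondrial membrane, and most of their subunits are encoded in the nucleus. The genes examined here were all rows of the count table whose symbol begins with Nduf, Sdha to Sdhd, Uqcr, Cox4 to Cox8 or Atp5, except for 1 row named as a pseudogene (Ndufa12-ps). The rule gave 100 genes of 19044, and used no measured value. By function they were divided into complex I (37 genes), complex II (4), complex III (8), complex IV (17), complex V (17), assembly factors (13) and further copies of subunit genes (4). Ndufa4 and Ndufa4l2, named after complex I, were counted with complex IV, where the Ndufa4 protein is known to sit. The subunits encoded by mitochondrial DNA were not analysed here.

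RNA was sequenced from regulatory T cells (Treg cells, which express Foxp3 and hold other immune cells in check) of mouse spleen and peripheral lymph nodes, without treatment. The WT mice carried Foxp3-YFP-Cre, a Cre recombinase with a yellow fluorescent protein driven by Foxp3. The other mice carried this allele and Ripk1fl/fl, a Ripk1 gene flanked by loxP sites that Cre removes in cells expressing Foxp3, so that both genotypes shared the Cre allele. Each genotype gave 1 library named rTreg and 1 named aTreg. The labels do not spell out these names (in this field, resting and activated Treg cells), nor the age, sex or number of the mice, the strain or the sorting gate. There was thus 1 library per combination of genotype and state and no replicate of any of the 4.

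The libraries held between 17588754 and 20868319 counts. Foxp3 lay between 619 and 694 CPM (a gene's counts divided by its library's total, on a common scale) in all 4. Where 4 values are given in a row without names, they stand for rTreg and then aTreg of WT mice, followed by rTreg and then aTreg under the knockout label. Ripk1 stood at 83.6, 77.5, 84.7 and 80.8 CPM in this order, so its level did not set the genotypes apart. The table gives 1 value per gene and not per exon, so it does not check the removal of part of Ripk1, and the second genotype is therefore named KO-labelled. Xist, the RNA of the inactive X chromosome of female cells, was at 299 and 338 CPM in the WT libraries and at 0.284 and 0.213 CPM in the KO-labelled ones, so sex and genotype cannot be told apart in any value below. Summed plasma cell markers were at 1.38 and 2.23 CPM in the WT libraries against 22.5 and 17.0 CPM in the KO-labelled ones, mostly Igkc, and summed erythroid markers at 0.619 and 1.60 against 9.20 and 10.3 CPM, mostly Hba-a1 in the latter. Summed myeloid markers were at 14.2, 14.0, 19.2 and 15.5 CPM, also higher in both KO-labelled libraries. The part of these cell types in the results was not tested. No marker of these 3 lists was at 0 in all libraries, though Hbb-bs and S100a8 were at 0 in WT rTreg and Adgre1 was at 0 in KO-labelled aTreg. Summed markers of B cells (12.8 to 19.0 CPM), CD8 T cells (7.82 to 12.9 CPM) and NK cells (0.284 to 2.33 CPM) overlapped between the genotypes.

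Complex I (NADH dehydrogenase) and complex II (succinate dehydrogenase) pass electrons to ubiquinone, complex III passes them to cytochrome c, and complex IV (cytochrome c oxidase) passes them to oxygen. Complexes I, III and IV pump protons as they do so, and complex V (ATP synthase) uses the proton gradient to make ATP. Treg cells are known to draw on this pathway for their function, and activated T cells enlarge it together with glycolysis.

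The promoters of these genes are known for shared short motifs, above all that of NRF1, a regulator of nuclear genes for respiratory subunits. RefSeq promoters (GRCm38.p6, from 250 bases before to 50 bases after the start) were matched for 81 of the 100 genes, and searched on both strands for the NRF1 letters, GCGC and TGCGC with any base between them. They were found in 21 of the 81 (25.9%), against 13.1% of the 7733 tested genes with a promoter and 5.19% of all 27025 genes with a promoter. The 4 windows below are shown because they lie outside annotated exons and span both outcomes of the genotype comparison: Ndufa11, Atp5h and Ndufs5 rose in KO-labelled libraries, and Ndufaf4 was not called. Each is given 5′ to 3′ on the strand of its gene, with the matching letters in capitals.

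Ndufa11, chr17:56717687-56717726, plus strand: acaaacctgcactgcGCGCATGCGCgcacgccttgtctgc

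Atp5h, chr11:115420036-115420075, minus strand: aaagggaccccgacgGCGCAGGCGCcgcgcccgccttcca

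Ndufs5, chr4:123718260-123718299, minus strand: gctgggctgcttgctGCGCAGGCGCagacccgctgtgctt

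Ndufaf4, chr4:24897955-24897994, plus strand: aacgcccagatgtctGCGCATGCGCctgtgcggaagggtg

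The same letters stand before Ndufa11, which rose, and Ndufaf4, which was not called. Before Atp5h and Ndufs5 the match is on the opposite strand, so the capitals there show the reverse complement of the letters, the same in both genes. Among members with a promoter, 7 of 36 called higher held the NRF1 letters (19.4%), as did 12 of 33 tested and not called (36.4%) and 0 of 5 called lower. The YY1 letters AAGATGGCG were in 8 of the 81 (9.88%), against 4.37% of tested genes, and the ETS letters CCGGAAGT in 5 (6.17%), against 10.8%. These shares describe letters in a window and not bound sites. Nrf1 itself was at 87.4, 79.7, 88.5 and 88.4 CPM (genotype log2 change 0.08 ± 0.069 SE, edgeR adjusted p = 0.342).

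In KO-labelled libraries the genes of oxidative phosphorylation stood mostly higher, by small amounts. Their summed level was 5941, 5813, 6980 and 7268 CPM, which is 1.17-fold higher in rTreg and 1.25-fold higher in aTreg. Of the 100 genes, 87 reached the mean of 5 CPM needed for the test. Among these, 43 rose and 6 fell between the genotypes (edgeR's quasi-likelihood test with Benjamini-Hochberg adjustment at 0.05), where 24.4% of all 9680 tested genes rose and 22.8% fell. The same shares of all genes stand beside each genotype count of this fit by complex or part below. In CPM, both KO-labelled libraries were above both WT libraries for 56 members (33.2% of all genes) and below both for 13 (31.9% of all genes). None of the 87 tested members differed by 2-fold or more in either state. Of all genes, 3.41% were at least 2-fold higher and 1.34% at least 2-fold lower in KO-labelled rTreg, and 3.95% and 2.17% in KO-labelled aTreg. The authors' deposited table, which compares the genotypes, had 21 members higher and 2 lower in KO-labelled libraries, against 9.61% and 7% of its 12398 genes with an adjusted p.

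**Figure D1:**
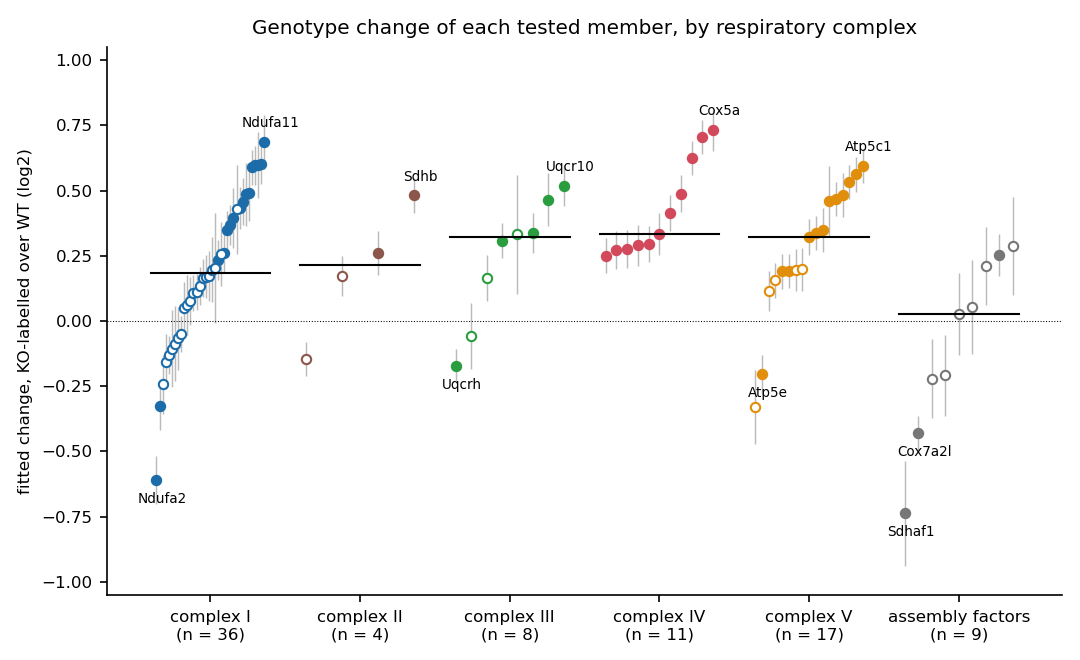
Fitted genotype change (log2, KO-labelled over WT) of each tested member by respiratory complex, without the copies Ndufb4b and Ndufb4c. Bars are 1 SE derived from the edgeR test, filled points passed the test and black lines are medians. All 11 points of complex IV are filled and above 0, while complex I runs from Ndufa2 at -0.61 to Ndufa11 at 0.69.

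The test rests on 4 libraries, with genotype and state as additive terms and 1 residual degree of freedom. With DESeq2 on the same genes 23 members rose (14.2% of all genes) and 2 fell (12% of all genes). With genotype as the only term in edgeR 21 rose (9.6% of all genes) and 2 fell (7.2% of all genes). With a library left out only genotype could be kept as a term, since both terms leave no residual degree of freedom. In that form, without KO-labelled rTreg or without KO-labelled aTreg, edgeR called no member and 1 gene of 9680 in all. At an unadjusted p under 0.05, the fit without KO-labelled rTreg had 27 members higher (14.1% of all genes) and 2 lower (11.5%). The fit without KO-labelled aTreg had 26 higher (12.6% of all genes) and 3 lower (10.5%). In these bulk libraries, a change in the share of cells with a high level cannot be told apart from a change in every cell.

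The genotype ratios were alike in rTreg and aTreg, which share no library. On the log2 scale (CPM, prior count of 2) the median over the 87 members was 0.17 in rTreg and 0.28 in aTreg, beside medians of 0.008 and 0.001 over all tested genes. The members were also less spread than all genes, with an SD of 0.31 and 0.29 against 0.484 and 0.544. The 2 sets were not matched for level: 73 of the 87 members and 7091 of the 9680 genes had a mean of at least 20 CPM. The ratio was above 0 for 68 members in rTreg (50.8% of all genes) and for 71 in aTreg (50.1% of all genes). In both states 67 members were above 0 and in both 15 were below, with 5 of opposite sign. Across the 87 members, as a description, the Pearson correlation of the ratios in rTreg and in aTreg was 0.872. Neither this correlation nor the counts of same and opposite sign are given over all genes. Whether the likeness of the states is particular to these members is therefore not shown.

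**Figure D2:**
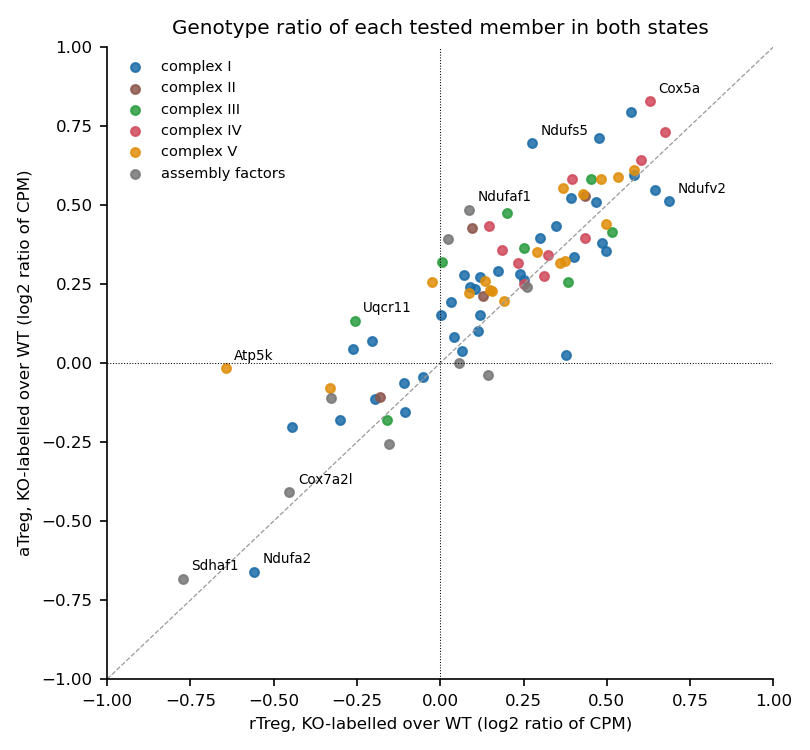
Log2 ratio of CPM, KO-labelled over WT, in rTreg (x axis) and in aTreg (y axis) for 85 of the 87 tested members, coloured by complex. The copies Ndufb4b and Ndufb4c, with the same counts as Ndufb4, are not drawn. The dashed line marks equal ratios. Most points lie along the line with 65 above 0 in both states, and Atp5k is the farthest from it (-0.64 in rTreg, -0.02 in aTreg).

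Complex IV, as divided here, was the complex in which every tested subunit rose: 11 of 11 passed the test. In all 11 both KO-labelled libraries were above both WT libraries. Its summed level was 1020, 1016, 1354 and 1460 CPM, 1.33-fold higher in rTreg and 1.44-fold higher in aTreg. The count and these sums depend on the division: Ndufa4, which rose, was counted in, and Cox7a2l, which fell by 0.43 (log2), was counted with the assembly factors. Cox4i1, the subunit that binds regulatory nucleotides, was at 245, 243, 323 and 364 CPM (log2 change 0.49 ± 0.071 SE, edgeR adjusted p = 0.000118). Cox5a, its neighbour in the assembled enzyme, was at 46.2, 46.7, 71.6 and 83.1 CPM, the largest rise of any member (0.73 ± 0.078 SE, edgeR adjusted p = 9.88e-06). Gm26631 overlaps 41.7% of the exon bases of Cox5a (chr9:57517328-57532427), and the strand setting of the counting is not given, so reads from the 2 genes may not be separated. The same limit holds for other members that share exon bases with another gene. Among them are Atp5o (40.1%), Ndufb6 (39.0%), Ndufa13 (30.0%), Ndufb9 (28.6%), Uqcrc2 (26.6%) and Atp5l (24.4%).

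Cox6a1 was at 137, 147, 219 and 244 CPM (0.70 ± 0.066 SE, edgeR adjusted p = 3.34e-06), and Cox8a at 108, 124, 164 and 193 CPM (0.62 ± 0.065 SE, edgeR adjusted p = 7.64e-06). The lowest KO-labelled library of each was well above its highest WT library. The other members of the complex rose less: Ndufa4 by 0.42, Cox7a2 by 0.33, Cox6c by 0.30, Cox6b1 by 0.29, Cox7b by 0.28, Cox5b by 0.27 and Cox7c by 0.25 (log2). Cox7c, the smallest of these rises, was at 85.4 and 81.3 CPM in the WT libraries and at 102 and 96.7 CPM in the KO-labelled ones, so the groups still did not overlap. With DESeq2 or with genotype as the only term, 5 of the 11 passed.

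Several complex IV subunits exist as a general form and a form restricted to other tissues. The muscle forms Cox6a2 (at most 1 count in a library), Cox8b (4 to 9 counts) and Cox7a1 (19 to 28 counts), the sperm form Cox6b2 (17 to 47 counts) and the oxygen-regulated forms Cox4i2 (5 to 8 counts) and Ndufa4l2 (at most 1 count) were near 0 in all 4 libraries and were not tested. Cox6b2, the highest of them in the WT libraries, was at 2.24, 1.31, 0.965 and 1.33 CPM. The tested members are thus the general forms in every library of both genotypes.

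Cox7a2l moved against its relative Cox7a2. Cox7a2l (Scaf1), which joins complexes III and IV into supercomplexes and was counted here with the assembly factors, was at 270 and 249 CPM in the WT libraries and at 197 and 188 CPM in the KO-labelled ones (-0.43 ± 0.066 SE, edgeR adjusted p = 0.000171). Cox7a2, the subunit found in free complex IV, was at 45.9 and 42.9 CPM in the WT libraries and at 57.4 and 54.4 CPM in the KO-labelled ones (0.33 ± 0.081 SE, edgeR adjusted p = 0.00451). The genotypes did not overlap for either gene, and the direction was the same in both states: the log2 ratio was -0.45 in rTreg and -0.41 in aTreg for Cox7a2l, and 0.32 and 0.34 for Cox7a2. With DESeq2 and with genotype as the only term, Cox7a2l was still called and Cox7a2 was not.

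**Figure D3:**
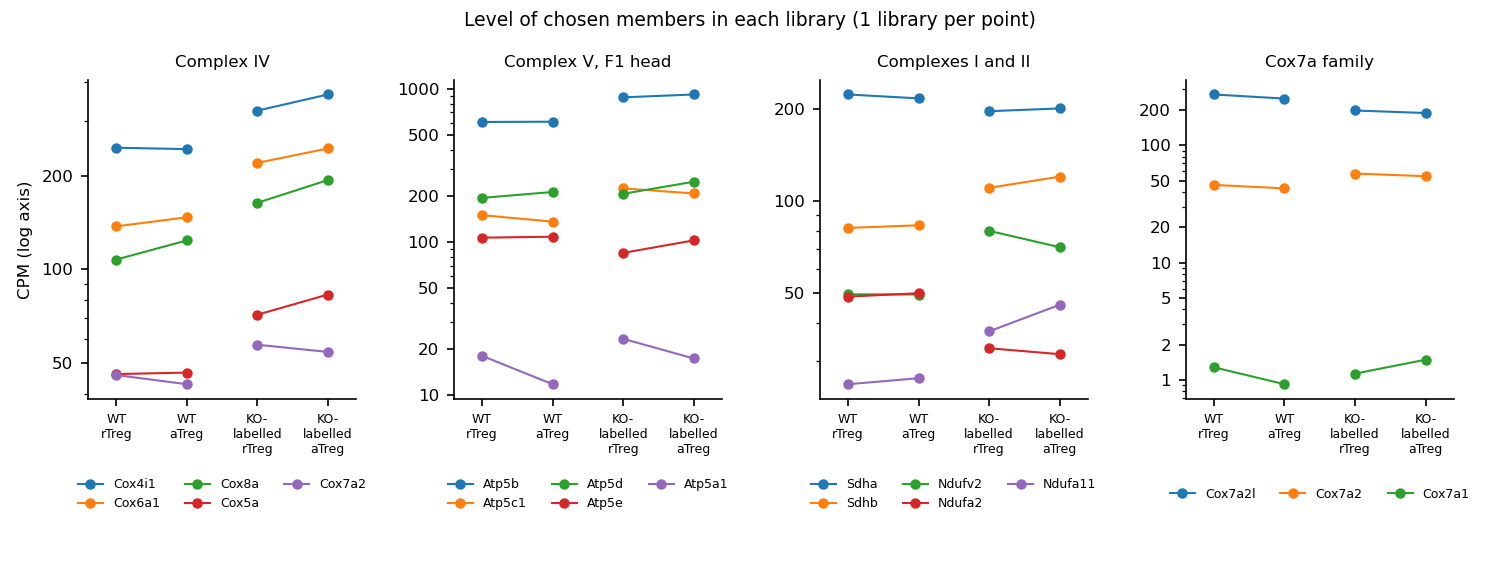
CPM on a log axis in each of the 4 libraries for chosen members of complex IV, the F1 head of complex V, complexes I and II and the Cox7a family; 1 point is 1 library and lines join the states of a genotype. The lines of Cox6a1, Cox5a, Atp5b and Sdhb step up between WT and KO-labelled libraries, those of Cox7a2l and Ndufa2 step down, and Cox7a1 stays near 1 CPM.

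In complex V 11 of 17 members rose and 1 fell. Its summed level was 2065, 2008, 2598 and 2664 CPM, 1.26-fold higher in rTreg and 1.33-fold higher in aTreg. In the catalytic F1 head, the beta subunit Atp5b, which carries the active sites, was at 606, 609, 878 and 916 CPM (0.56 ± 0.068 SE, edgeR adjusted p = 2.67e-05). The gamma subunit Atp5c1, the rotating shaft, was at 149, 136, 224 and 207 CPM (0.60 ± 0.065 SE, edgeR adjusted p = 1.18e-05). Both had their KO-labelled libraries well above their WT libraries.

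The small subunits at the foot of the shaft did not follow. The delta subunit Atp5d was at 194, 212, 206 and 247 CPM with overlapping genotypes (0.16 ± 0.068 SE, edgeR adjusted p = 0.0768). The epsilon subunit Atp5e was at 107, 108, 84.8 and 102 CPM and fell (-0.20 ± 0.074 SE, edgeR adjusted p = 0.0385), more in rTreg (log2 ratio -0.33) than in aTreg (-0.08, 95% counting interval -0.17 to 0.01). Atp5e was not called by DESeq2 or with genotype as the only term.

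The peripheral stalk, which holds the head still, rose in 3 of 4 members: Atp5pb (b subunit) by 0.47, Atp5h (d) by 0.34 and Atp5j (F6) by 0.32, while Atp5o (OSCP) stood at 0.20 ± 0.079 SE (edgeR adjusted p = 0.057). The c ring that turns in the membrane is encoded by 3 genes with the same mature protein. Atp5g2 was at 125, 128, 139 and 150 CPM (0.19 ± 0.065 SE, edgeR adjusted p = 0.0275), Atp5g1 at 45.3, 50.1, 49.8 and 59.9 CPM (0.20 ± 0.081 SE, edgeR adjusted p = 0.0616) and Atp5g3 at 154, 137, 152 and 164 CPM (0.12 ± 0.075 SE, edgeR adjusted p = 0.226). Of the 3, Atp5g2 was the gene whose genotypes did not overlap. Atp5g2 was not called by DESeq2, with genotype as the only term or with upper-quartile scaling. Of the stalk members that rose, DESeq2 called Atp5pb and Atp5h, and genotype as the only term called Atp5pb.

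Of the 5 subunits that sit in the membrane beside the ring, 4 rose: Atp5j2 (f subunit) by 0.53, Atp5md by 0.48, Atp5mpl by 0.35 and Atp5l (g) by 0.19. Atp5mpl and Atp5l were not called by DESeq2 or with genotype as the only term. Atp5k, the e subunit that pairs with g where 2 synthases meet, was at 30.9, 25.2, 19.8 and 24.9 CPM. Its KO-labelled rTreg library was the lowest and its WT rTreg library the highest, and it showed the largest gap between the states of any tested member. The log2 ratio was -0.64 in rTreg (95% counting interval -0.84 to -0.46) and -0.02 in aTreg (-0.20 to 0.17). With 1 library per combination the difference between the states could not be tested, and these intervals cover counting error alone. Atp5k was not called for genotype (-0.33 ± 0.142 SE, edgeR adjusted p = 0.0743). It was called lower with upper-quartile scaling (-0.375, 27.6% of all genes lower) and without a minimum level (-0.315, 13% of all genes lower).

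Complex I changed in both directions, with 14 of 36 tested members higher and 2 lower. Its summed level was 1491, 1473, 1677 and 1745 CPM, 1.12-fold higher in rTreg and 1.18-fold higher in aTreg. Of the core subunits, which carry the flavin and the iron-sulfur clusters, 2 of 6 tested rose. Ndufv2, which holds a cluster beside the flavin site, was at 49.7, 49.6, 80.0 and 70.8 CPM (0.60 ± 0.077 SE, edgeR adjusted p = 4.03e-05), and Ndufs8 rose by 0.43. Among those of the core that were not called, Ndufs1 stood at 0.16, Ndufs7 at 0.14 and Ndufv1, which binds NADH and the flavin, at -0.13.

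Among the 30 accessory subunits, which surround the core, 12 rose and 2 fell. Ndufa11, which bridges membrane segments of the complex, was at 25.3, 26.4, 37.6 and 45.9 CPM (0.69 ± 0.105 SE, edgeR adjusted p = 0.000164). Ndufb9, a subunit of the distal arm, was at 15.1, 16.6, 23.6 and 24.3 CPM (0.60 ± 0.126 SE, edgeR adjusted p = 0.00175). Both had genotypes well apart, as had Ndufb7 (67.3, 66.0, 93.7 and 108 CPM) and Ndufa10 (65.7, 63.9, 98.4 and 96.5 CPM). The other 8 accessory subunits called higher ran from Ndufa13 at 0.23 to Ndufb1 and Ndufs5 at 0.49. Ndufs5 was at 26.1, 20.8, 31.6 and 33.7 CPM, and its log2 ratio was 0.28 for rTreg and 0.70 for aTreg. It was not called by DESeq2 or with genotype as the only term. Ndufb8, among the nearest to 0, was at 30.5, 35.0, 32.0 and 35.9 CPM with overlapping genotypes.

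The 2 that fell were Ndufa2 and Ndufa3. Ndufa2, an accessory subunit of the arm that oxidises NADH, was at 48.8 and 50.1 CPM in the WT libraries and at 33.1 and 31.7 CPM in the KO-labelled ones (-0.61 ± 0.092 SE, edgeR adjusted p = 0.000146). Ndufa3, a small membrane subunit, was at 53.3 and 45.9 CPM against 39.2 and 39.9 CPM (-0.32 ± 0.093 SE, edgeR adjusted p = 0.0118). Ndufa2 and Ndufv2 are in the same arm and moved in opposite directions in both states: the log2 ratio of Ndufa2 was -0.56 in rTreg and -0.66 in aTreg, that of Ndufv2 0.69 and 0.51. Ndufa2 was also called by DESeq2 and with genotype as the only term, Ndufa3 by neither.

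The 3 members on the X chromosome did not move together. Cox7b rose (61.3, 56.6, 72.1 and 70.6 CPM), while Ndufb11 (72.2, 71.7, 69.6 and 69.5 CPM) and Ndufa1 (28.0, 26.2, 22.7 and 23.1 CPM) were not called. Ndufa1 was called lower with upper-quartile scaling (27.6% of all genes lower). Ndufb4 and its copies Ndufb4b and Ndufb4c held the same counts in every library (500, 461, 432 and 445), so the table does not separate them; none was called, and they are counted as 3 of the 87 tested.

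Complex II rose in 2 of its 4 subunits. Sdhb, the iron-sulfur subunit, was at 81.8, 83.4, 111 and 120 CPM (0.48 ± 0.067 SE, edgeR adjusted p = 7.99e-05), with the genotypes apart. Sdhd, a membrane anchor, was at 62.6, 55.3, 66.9 and 74.3 CPM (0.26 ± 0.085 SE, edgeR adjusted p = 0.023), and the other anchor Sdhc at 51.9, 54.7, 56.7 and 63.4 CPM (0.17 ± 0.077 SE, edgeR adjusted p = 0.082). The flavoprotein Sdha, which oxidises succinate, stood on the other side at 223, 217, 197 and 201 CPM (-0.15 ± 0.066 SE, edgeR adjusted p = 0.0873). Sdha was called lower with upper-quartile scaling (-0.192, 27.6% of all genes lower). Sdhd was not called by DESeq2, with genotype as the only term or with upper-quartile scaling.

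The assembly factors of complex II differed too. Sdhaf1, which helps to insert the clusters of Sdhb, was at 9.58 and 9.13 CPM in the WT libraries and at 5.56 and 5.65 CPM in the KO-labelled ones (-0.74 ± 0.200 SE, edgeR adjusted p = 0.00887), the largest fall of any member. It rests on 201, 188, 98 and 106 counts, was not called by DESeq2 or with genotype as the only term, and shares 69.6% of its exon bases with E130208F15Rik. Sdhaf2, which helps to add the flavin to Sdha, was at 45.5, 46.0, 54.5 and 54.5 CPM (0.25 ± 0.081 SE, edgeR adjusted p = 0.0214). Sdhaf2 was not called by DESeq2, with genotype as the only term or with upper-quartile scaling.

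The factors named Ndufaf, which assemble complex I, were low and none of the 6 tested was called, with fitted log2 changes between -0.22 (Ndufaf4) and 0.29 (Ndufaf1). Nearest to 0 were Ndufaf3 (11.7, 12.6, 12.1 and 12.6 CPM), Ndufaf5 (8.67, 9.96, 9.59 and 9.70 CPM) and Ndufaf8 (12.0, 15.1, 10.7 and 12.6 CPM), each with overlapping genotypes. Ndufaf1 was at 9.29, 7.43, 9.88 and 10.4 CPM, and its log2 ratio was 0.09 for rTreg and 0.49 for aTreg. Of all 9 assembly factors tested, 1 rose and 2 fell, Cox7a2l and Sdhaf1. Their median ratio was 0.02 in rTreg and -0.04 in aTreg, while that of complex IV was 0.32 and 0.39. In the larger list of assembly factors outside the name rule, 8 of 37 rose and 4 fell, among them Tmem126b at 0.57 and Cox14 at -0.47. Of all tested genes, 24.4% rose and 22.8% fell.

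In complex III 4 of 8 members rose and 1 fell. The Rieske iron-sulfur protein Uqcrfs1 was at 81.5, 74.6, 93.6 and 104 CPM (0.34 ± 0.077 SE, edgeR adjusted p = 0.00295). The small subunit Uqcr10 was at 44.5, 43.9, 60.9 and 65.7 CPM (0.52 ± 0.080 SE, edgeR adjusted p = 0.000179), Uqcrb at 26.2, 28.2, 37.4 and 37.6 CPM (0.47 ± 0.102 SE, edgeR adjusted p = 0.0023), and the core subunit Uqcrc2 rose by 0.31. In each of these 4 the genotypes did not overlap. DESeq2 did not call Uqcrfs1, and genotype as the only term called neither Uqcrfs1 nor Uqcrc2. The hinge protein Uqcrh, which assists the transfer to cytochrome c, was at 137, 138, 123 and 121 CPM (-0.17 ± 0.064 SE, edgeR adjusted p = 0.0441) and was not called by DESeq2, without a minimum level or with genotype as the only term. The small subunits Uqcrq (53.9, 55.5, 54.0 and 69.3 CPM) and Uqcr11 (23.3, 24.9, 19.5 and 27.3 CPM) were not called, and the genotypes overlapped for both. Outside the name rule, cytochrome c (Cycs) rose by 0.49, and cytochrome c1 (Cyc1), the other electron carrier of complex III that is encoded in the nucleus, stood at 0.16 and was not called.

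Between the states, 2 members changed. In the additive fit 1 of 87 was higher in aTreg (7.91% of all genes) and 1 was lower (5.44% of all genes). Cox8a rose in aTreg, from 108 to 124 CPM in WT and from 164 to 193 CPM in KO-labelled cells (0.22 ± 0.065 SE, edgeR adjusted p = 0.0372). Atp5a1, the alpha subunit of the F1 head, fell in aTreg, from 18.1 to 11.8 CPM in WT and from 23.3 to 17.4 CPM in KO-labelled cells (-0.52 ± 0.135 SE, edgeR adjusted p = 0.0232). Uqcrc1 was nearest beyond the threshold, at 5.77 and 3.64 CPM in WT and 7.55 and 4.37 CPM in KO-labelled cells (-0.73 ± 0.228 SE, edgeR adjusted p = 0.0536), and was called lower without a minimum level. Neither DESeq2 nor edgeR with state as the only term called any member for state. At an unadjusted p under 0.05, DESeq2 had 0 members higher (7.05% of all genes) and 1 lower (5.4%), and state as the only term had 0 in either direction (2.28% and 1.11% of all genes). The median ratio of aTreg over rTreg was -0.04 in WT and 0.03 in KO-labelled libraries, with 37 (50.2% of all genes) and 52 members (50.7% of all genes) above 0. None of the 87 tested members reached 2-fold, where 1.87% of all genes were at least 2-fold higher in aTreg and 0.723% at least 2-fold lower in WT, and 0.95% and 0.134% in KO-labelled libraries.

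The levels per length of exon (CPM per kb, GENCODE M21 exons on GRCm38, for 95 of the 100 genes) differed between subunits of a complex, also between partners that are present in equal numbers. The length joined the exons of all protein-coding transcripts of a gene, such as 4.375 kb for Ndufb2 and 6.804 kb for Sdhaf2. It can exceed the length of the transcript in use, which lowers the level per kb. The median of the tested members was 34.8 CPM per kb in complex I, 62.4 in complex II, 61.3 in complex III, 96.0 in complex IV and 98.6 in complex V, and 7.37 in the assembly factors. Atp5a1 and Atp5b, which alternate in the F1 head, were at 6.08 and 393 CPM per kb, and Atp5b was 50.9 times Atp5a1 in WT rTreg, 78.2 in WT aTreg, 57.0 in KO-labelled rTreg and 79.9 in KO-labelled aTreg. Uqcrc2 exceeded Uqcrc1, its partner in the core of complex III, 16.9, 23.6, 15.4 and 25.4 times in the same order. In both pairs the ratio was higher in the aTreg libraries than in the rTreg libraries of either genotype.

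Ndufs3, a core subunit of complex I, had 0, 0, 2 and 0 counts, where 3 counts are 0.143 to 0.17 CPM in these libraries. Ndufb2 was the lowest tested member of complex I at 1.56 CPM per kb. These low values hold in all 4 libraries. How the counting treated these genes, and the part of the exon length in the level of Ndufb2, was not tested. The state changes of Atp5a1 and Uqcrc1 above therefore rest on 243 to 411 counts per library (Atp5a1) and 75 to 133 counts (Uqcrc1), for genes that stand far below their partners.

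**Figure D4:**
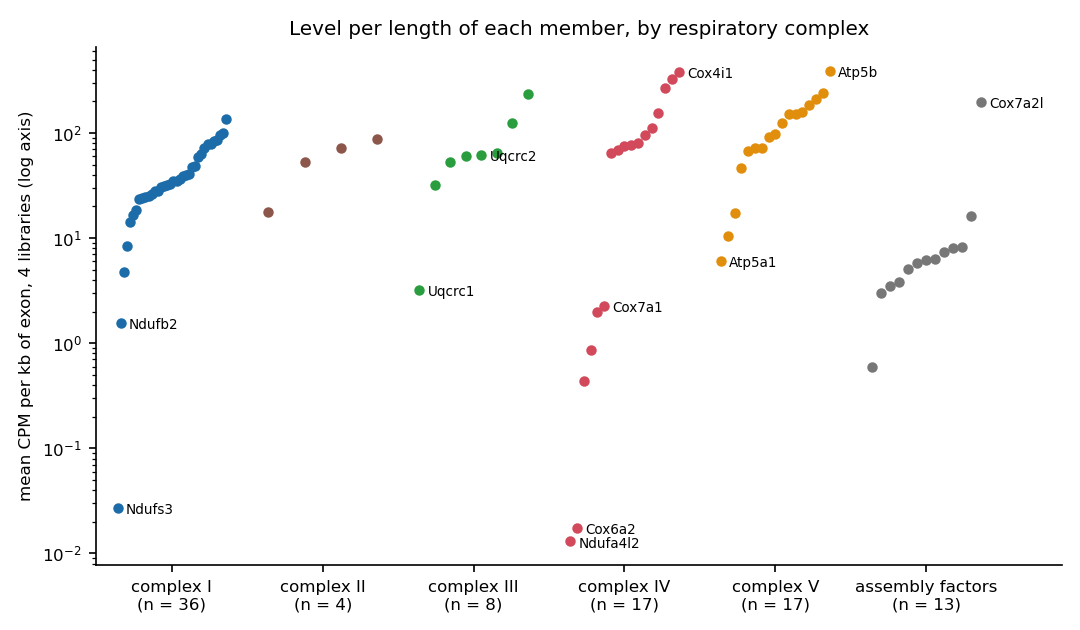
Mean CPM per kb of exon over the 4 libraries (log axis) for the 95 members with an exon length, by complex. Ndufs3 and Uqcrc1 lie apart below the other subunits of their complexes, Atp5a1 is the lowest of complex V, and the tissue forms of complex IV lie below 3 CPM per kb.

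Other lists of related genes give the setting of these changes, with 24.4% and 22.8% of all tested genes called higher and lower. Of 8 tested carriers and subunits listed apart (2 of them, Atp5md and Atp5mpl, also members), 6 rose and none fell, among them the ADP/ATP carrier Slc25a4 at 0.86 and the ATP synthase inhibitor Atpif1 at 0.58. Of the tricarboxylic acid cycle 8 of 18 rose and 1 fell, with Idh3a at 0.86 and Idh2 at 0.68 above and Suclg2 at -0.30 below. Of glycolysis 15 of 18 rose and none fell, with Tpi1 at 1.44 and the lactate exporter Slc16a3 at 1.14. Of 17 regulators of mitochondrial biogenesis none rose and 5 fell, among them Ppargc1b at -0.61 and the DNA helicase Twnk at -0.51. Of 21 genes of mitochondrial import 3 rose and 4 fell, with Timm8b at 0.78 and Tomm7 at -0.51. All 24 cell cycle genes rose, with E2f8 at 2.30 and Birc5 at 2.13, and of 74 cytosolic ribosomal protein genes 5 rose and 47 fell, with Rps26 at 0.46 and Rps16 at -0.95. Whether the changes of the respiratory subunits go with those of the cell cycle genes was not tested.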

How the data were processed

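The submitters' processing notes name HISAT2 2.2.1, featureCounts 2.0.1 and the build GRCm38 for the 4 Treg libraries. Neither the annotation nor the strand setting is given in the sources used here. The deposited count table holds whole reads per gene symbol. A second deposited table holds variance-stabilised log2 values and, per the file headers, a mean signal, the log2 fold change, its error, a score (the test statistic) and a p-value of the authors' comparison of genotypes.

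From the counts, edgeR 4.0.16 (R 4.3.3; TMM, quasi-likelihood, state and genotype as additive terms, genes at a mean of 5 CPM or more) tested 9680 genes, which hold 99.31% of the counts, with adjusted p under 0.05 called. It had 1 residual and 11.8 prior degrees of freedom, and a biological coefficient of variation of 6.66%. The p-values test the genotype or the state term. Each SE was derived from that test, as the absolute log2 change divided by the square root of the F statistic. It is not a spread between replicate libraries. With no true replicates, their error is estimated from the deviation of 4 libraries from additivity, and variation between mice was not measured. The script was run on simulated counts with known genotype changes, no state change and a coefficient of variation of 6.66%. That run checked the calculation, and cannot check the error of libraries without replicates. Ratios of single libraries are log2 CPM with a prior count of 2, with exact binomial 95% intervals that cover counting error only. DESeq2 1.42.0 and other scalings, filters and terms were alternatives.

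Members, lists and naming rule were chosen with earlier results of these data known. Named were the members of each complex with the 3 largest called changes per direction and the 3 changes nearest to 0, those called for state, isoforms of complex IV and the c ring, the 3 largest gaps between states, and 2 genes per direction of each list. Members singled out beyond this (Ndufs3, Ndufb2, Uqcrc1, Ndufa1 and others named for role) were chosen after their values were seen. Some results are not reported here.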

Additional observations from a re-analysis of the deposited data

How the results depend on the processing

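The members called for genotype depended on how the error was estimated more than on scaling. DESeq2 called 23 members higher (8 in complex I, 5 in complex IV, 6 in complex V) and 2 lower; genotype alone called 21 (8, 5 and 5) and 2. All 25 called by DESeq2 and all 23 called with genotype alone were among the 49 of the additive fit, in the same direction. Leaving out each library in turn, with genotype alone as the term, gave 0 to 17 members higher (0 to 6, 0 to 4 and 0 to 5 in complexes I, IV and V) and 0 to 2 lower; without WT rTreg it was 17 (6, 4 and 5; 8.8% of all genes) and without WT aTreg 14 (5, 4 and 3; 9.01% of all genes), with 1 and 2 lower (6.95% and 6.52% of all genes). The 0 came without KO-labelled rTreg or KO-labelled aTreg, where edgeR called 1 gene of 9680 in all. For state, DESeq2 and state alone called 0 members in each direction, as did every fit with state alone and without a library (0 to 0); without a minimum level 2 were lower, Atp5a1 and Uqcrc1, and with a mean of at least 20 CPM 0 were lower, as Atp5a1 was not tested. Of all genes, 4.16% were lower for state without a minimum level and 6.06% with the mean of 20 CPM. For genotype, RLE size factors kept all 49 calls (23.7% of all genes higher and 23% lower). Upper-quartile scaling kept 44 and added Atp5k, Ndufa1 and Sdha as lower. That scaling called 21% of all genes higher and 27.6% lower, where the additive fit called 24.4% and 22.8%. The median ratio of the members stayed between 0.123 and 0.236 in rTreg and between 0.217 and 0.303 in aTreg over 7 alternatives each. No paired analysis was possible because the labels carry no replicate numbers and each combination has 1 library. The minimum of 5 CPM left 13 of the 100 members untested.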
